A study of Mus musculus with 10 samples.

Results

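The expression of 10 genes of the Notch pathway and of secretory fate was followed through mouse intestinal organoids and colonic crypts by single-cell RNA sequencing. The genes are the receptors Notch1 and Notch2, the ligands Dll1, Dll4 and Jag1, the target genes Hes1 and Hey1, their relative Hes6, and the secretory transcription factors Atoh1 and Gfi1. They were chosen by name, as 10 of the 23810 genes of the deposited count table, and their counts were summed per library and per deposited cell class. All 10 had at least 1 count in the organoids. A count is a UMI, a molecular tag that marks 1 captured transcript, and levels are given as counts-per-million (CPM) of the same cells.

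In Notch signaling a ligand on one cell activates a receptor on its neighbour, and the receptor's intracellular part then enters the nucleus and, with RBPJ and a Mastermind protein, switches on repressors of the Hes and Hey families. In the intestinal crypt Hes1 represses Atoh1, so that progenitors with active Notch tend to an absorptive fate, while cells that keep Atoh1 become goblet, Paneth or enteroendocrine cells and present Dll1 and Dll4 to their neighbours. Gfi1 acts downstream of Atoh1, and Hes6 can oppose Hes1.

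ENR-organoids (3 libraries) were cultures of proximal small intestinal crypts in the conventional medium with EGF (50 ng/ml), Noggin (100 ng/ml) and R-Spondin 1 (500 ng/ml). Hyper-organoids (3 libraries) were grown with EGF (50 ng/ml), R-Spondin 1 conditioned medium (10%), the BMP receptor inhibitor LDN193189 (0.2 μM), GSK-3 Inhibitor XV (0.1 μM), Pexmetinib (1 μM), FGF2 (20 ng/ml), the histone deacetylase inhibitor valproic acid (VPA, 500 μM) and the EZH2 inhibitor EPZ6438 (2 μM). The -VE-organoids (2 libraries) received this medium without VPA and EPZ6438. EGF and an R-Spondin 1 source were thus shared by all organoid groups, and the ENR medium held Noggin, a BMP antagonist, in the place of LDN193189. Replicates 1, 2 and 3 are the libraries with 2, 6 and C in their sample codes, called culture series here. They were taken at passage 2, 7 and 3 for ENR-organoids, 1, 6 and 3 for Hyper-organoids, and 1 and 6 for -VE-organoids. In the first 2 series the passage number of ENR-organoids was thus 1 higher, and the labels do not say from which point passages were counted. The labels do not say whether series 2 and 6 are separate cultures or the same culture at different passages. In series 2 and 6 the Hyper- and -VE-organoids were derived from ENR-organoids, and in series C both cultures were started from primary crypts. The colonic crypts were 1 library from normal mice and 1 from mice given dextran sulfate sodium (DSS), which injures the colon. They are another tissue than the organoids and were compared only with each other. Per the study's methods, crypt donors were 6 to 12 weeks old and the mice of the colitis model were females of 8 weeks. Which strain and genotype each library came from, and the day of sampling after DSS, are not given in the sources used here.

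The 8 organoid libraries held 1983 to 4293 kept cells and 89124015 to 170019527 UMIs each, and the colonic libraries 1132 and 1933 cells with 19906845 and 32397122 UMIs. Of 25124 distinct cell barcodes, 63 occurred in more than 1 organoid library. Over the cells of all organoid libraries together, each of the goblet, Paneth, enteroendocrine and enterocyte classes had the highest sum of its own marker list. The stem markers Lgr5, Ascl2, Olfm4 and Cd44 summed in this way to 1496 CPM in the stem class and 1490.5 CPM in the transit amplifying class. The media had unlike parts in these classes, as Hyper-organoids gave 3481 of 6065 stem and 3900 of 10117 transit amplifying cells. Whether the stem markers separate these classes within a medium was not tested. The goblet list was nearly as high in the Paneth (16485 CPM) as in the goblet class (19050 CPM). The Paneth list summed to 7845 CPM in the goblet and 95270 CPM in the Paneth class. Over all cells the sum of the stem markers was lower in Hyper-organoids (894, 285 and 263 CPM) than in the other organoids (1090 to 2032 CPM). The most abundant marker can set such a sum, and it does not show which markers fell. The paper reports less Olfm4 in injury-responsive Lgr5+ stem cells, whereas Lgr5, Cd44 and Ascl2 were expressed by stem cells of both cultures. The leukocyte list lay between 3.51 and 5.40 CPM in the organoids, and the list for stroma and endothelium between 5.58 and 90.8 CPM, highest in Hyper-organoid replicate 1.

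The sequence upstream of a member is the stretch in which a Hes repressor or the RBPJ complex could act, and 8 members had 11 upstream windows of 250 bases in RefSeq (GRCm38.p6); Hes1 and Hey1 had none. Shown are the windows of Atoh1, Dll4 and, as the farther upstream of its 2 windows, each with 1 Hes-type match, Dll1, the members that were lower in Hyper- than in -VE-organoids in the tests described further on, and of Hes5, a further Hes gene with 2 RBPJ-type matches, chosen after its values were seen. Each runs 5′ to 3′ on the strand of its gene and ends at the base before the RefSeq start, and capitals mark the matches.
Atoh1, chr6:64728875-64729124 (+), 3 Hes-type matches: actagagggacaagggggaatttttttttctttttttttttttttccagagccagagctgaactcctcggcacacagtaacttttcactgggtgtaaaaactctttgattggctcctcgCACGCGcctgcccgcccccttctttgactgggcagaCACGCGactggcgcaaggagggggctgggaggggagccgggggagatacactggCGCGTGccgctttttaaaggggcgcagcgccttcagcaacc
Dll1, chr17:15376933-15377182 (-), 1 Hes-type match: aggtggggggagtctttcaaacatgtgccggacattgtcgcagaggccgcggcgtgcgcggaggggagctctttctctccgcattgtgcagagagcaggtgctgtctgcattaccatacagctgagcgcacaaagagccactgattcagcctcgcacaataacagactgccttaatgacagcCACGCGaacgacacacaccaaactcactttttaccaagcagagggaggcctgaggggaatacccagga
Dll4, chr2:119325534-119325783 (+), 1 Hes-type match: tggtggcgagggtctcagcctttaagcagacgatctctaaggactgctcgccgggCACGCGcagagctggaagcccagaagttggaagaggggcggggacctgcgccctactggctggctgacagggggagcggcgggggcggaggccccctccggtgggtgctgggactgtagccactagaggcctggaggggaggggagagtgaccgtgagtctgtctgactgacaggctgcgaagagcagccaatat
Hes5, chr4:154960673-154960922 (+), 2 RBPJ-type matches: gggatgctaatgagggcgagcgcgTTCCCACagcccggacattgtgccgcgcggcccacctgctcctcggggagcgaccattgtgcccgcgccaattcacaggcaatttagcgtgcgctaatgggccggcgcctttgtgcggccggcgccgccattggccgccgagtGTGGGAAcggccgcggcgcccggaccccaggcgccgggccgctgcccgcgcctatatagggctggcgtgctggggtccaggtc

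The Hes-type motif searched was CACGNG and the RBPJ-type motif GTGGGAA, each on both strands, and the motifs can share bases where they adjoin. The matches in Atoh1 began 131, 95 and 41 bases before the start, the last on the opposite strand. Over the members, 7 of 11 windows held a Hes-type match and 0 of 11 an RBPJ-type match. The 7 include windows not shown of Jag1 (2 matches), Notch2 and Hes6 (1 match each). These members were not among those lower in Hyper- than in -VE-organoids, so such matches were not particular to members that fell. Of 32851 RefSeq promoter windows of this length, 23.5% held at least 1 Hes-type match and 5.40% at least 2, and 5.42% held an RBPJ-type match and 0.161% at least 2. These are matches of letters and not measured binding sites.

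The members differed in the cell classes in which they were read most strongly. Levels are means of the 8 organoid libraries, or of those with at least 20 cells of the class, and a class is called higher than the next where the gap was larger than the spread between libraries. This spread includes differences between the media, and the classes were not paired by library.

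Atoh1 (ENSMUSG00000073043, chromosome 6, 64729125 to 64731245) is the factor that commits a progenitor to the secretory lineage. Its level was 74.8 ± 16.3 CPM (SD, n = 8) in the goblet class, 34.7 ± 15.04 CPM (n = 5) in the Paneth class and 3.20 ± 1.62 CPM (n = 8) in the enteroendocrine class, each higher than the next. The transit amplifying (0.780 ± 0.288 CPM) and stem classes (0.705 ± 0.545 CPM) did not differ beyond their spread. Goblet cells, which secrete mucus, held 78.5%, 81.3% and 80.3% of all Atoh1 UMIs in ENR-, -VE- and Hyper-organoids on average, although they were 5.29%, 8.03% and 6.01% of the cells. Gfi1 (ENSMUSG00000029275, chromosome 5, 107716657 to 107726036), a zinc finger repressor of the same lineage, was still more unequal, with 24.4 ± 9.3 CPM in the goblet class, 5.88 ± 1.88 CPM in the Paneth class and at most 0.925 CPM in the other classes that reached 20 cells in more than 1 library.

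Both Delta ligands were highest in the secretory classes. Dll1 (ENSMUSG00000014773, chromosome 17, 15367354 to 15376872) was highest in goblet cells (64.8 ± 23.6 CPM, n = 8), then in enteroendocrine cells (31.9 ± 10.1 CPM, n = 8) and Paneth cells (12.6 ± 2.2 CPM, n = 5). From the stem class (7.42 ± 2.04 CPM) to the transit amplifying class (6.05 ± 1.52 CPM) the levels did not differ beyond their spread. Dll4 (ENSMUSG00000027314, chromosome 2, 119325784 to 119335962) had 35.6 ± 10.7 CPM in enteroendocrine and 28.3 ± 4.5 CPM in goblet cells, which overlapped (in Hyper-organoids the means were 25.6 and 27.1 CPM), then 12.8 ± 5.8 CPM in Paneth cells and at most 1.60 CPM elsewhere. Jag1 (ENSMUSG00000027276, chromosome 2, 137081456 to 137116644), the ligand of the Jagged family, showed no such concentration, and its class means lay between 4.25 and 7.91 CPM. An exception was the revival stem class of Hyper-organoid replicate 3, whose 26 cells gave 31.1 CPM of Jag1 (47 UMIs). These cells also gave 15.9 CPM of Notch2 (24 UMIs), above the stem class of that library. Their Hes1 level was 240 CPM (362 UMIs), below the enterocytes of that library.

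Of the classes measured in 5 or more libraries, the stem and transit amplifying classes had the highest levels of both receptors. Notch1 (ENSMUSG00000026923, chromosome 2, 26457903 to 26516663) had 21.1 ± 2.5 CPM in the transit amplifying and 19.8 ± 3.9 CPM in the stem class, which did not differ beyond their spread. It had 12.9 ± 3.7 CPM in enteroendocrine cells, 8.82 ± 1.75 CPM in enterocytes, 7.91 ± 2.45 CPM in goblet cells and 2.45 ± 2.40 CPM in Paneth cells. Notch2 (ENSMUSG00000027878, chromosome 3, 98013527 to 98150361) had 6.84 ± 1.02 and 6.70 ± 1.15 CPM in the stem and transit amplifying classes and 1.19 to 1.85 CPM in the 3 secretory classes.

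Hes1 (ENSMUSG00000022528, chromosome 16, 30064384 to 30067796), the repressor that relays the Notch signal, stood at 117 to 205 CPM in the stem, transit amplifying, enterocyte progenitor and enterocyte classes, with no neighbours that differed beyond their spread, and at 54.2 ± 12.7 CPM in goblet, 30.1 ± 10.3 CPM in Paneth and 23.7 ± 11.1 CPM in enteroendocrine cells. Within libraries, however, Hes1 was higher in the enterocyte (mean 205 CPM) than in the transit amplifying class (mean 155 CPM) in 7 of 7. Hes6 (ENSMUSG00000067071, chromosome 1, 91411483 to 91414038) was read in every class and was highest in enteroendocrine cells (288 ± 23 CPM), then in goblet cells (182 ± 31 CPM) and in the stem (122 ± 11 CPM) and transit amplifying classes (118 ± 14 CPM). Hey1 (ENSMUSG00000040289, chromosome 3, 8663359 to 8667256) was rare, with 1.89 ± 1.19 CPM in enteroendocrine cells on 29 UMIs in all and under 0.7 CPM in each other class. The list for stroma and endothelium also summed highest in enteroendocrine cells (523 CPM, against at most 28.0 CPM in the other classes), and its part in the Hey1 level was not tested.

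**Figure D1:**
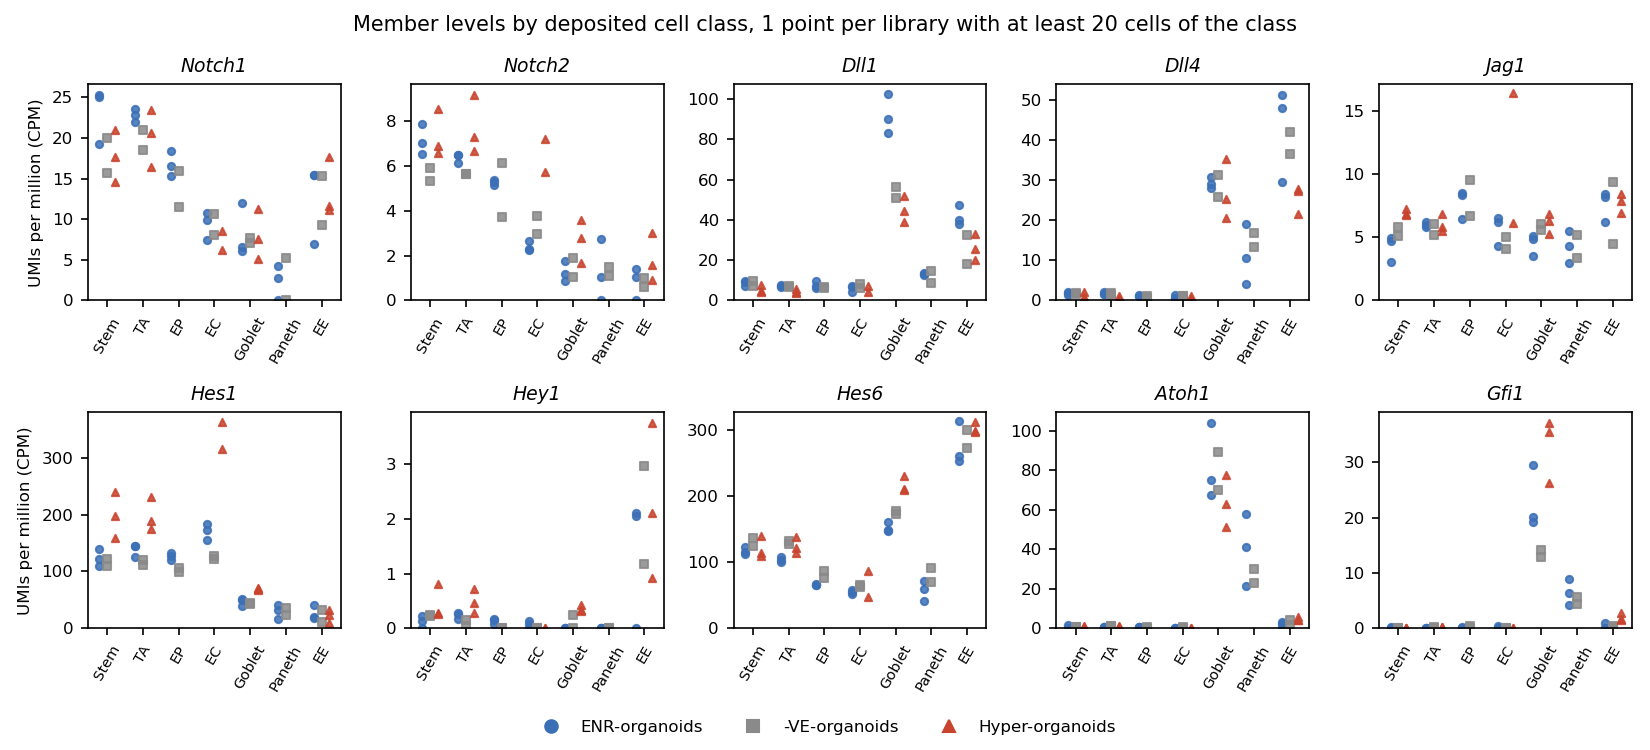
Levels in CPM (linear y axes, 1 panel per gene) in each deposited class of the organoids, with 1 point per library that held at least 20 cells of the class; TA is transit amplifying, EP enterocyte progenitor, EC enterocyte and EE enteroendocrine. Atoh1, Gfi1 and Dll1 peak in the goblet class, Dll4 in the goblet and enteroendocrine classes, Hes1 and Notch2 lie lowest in the goblet, Paneth and enteroendocrine classes, and Notch1 lies lowest in the Paneth class.

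The genes whose class pattern was most like that of each member were sought over 50 sums of class and library, among 12607 genes, and the correlations of log2(CPM + 1) are descriptions across sums that share libraries and differ in depth. Spdef, a goblet and Paneth cell factor, was closest to Atoh1 (Pearson r 0.976), followed by Ano7 (0.966) and Tpsg1 (0.961). Atoh1 itself (0.946), Spdef (0.939) and Tsta3 (0.930) were closest to Gfi1. Hepacam2 (0.966), 5330417C22Rik (0.962) and Tecpr1 (0.961) were closest to Dll4, whereas for Dll1 these were Cog1 (0.916), Tpd52 (0.910) and Dll4 (0.910). The patterns closest to Notch1 belonged to Kcnq1 (0.939), Abt1 (0.919) and Mrpl44 (0.912), and those closest to Notch2 to Mpzl2 (0.891), Impa2 (0.875) and Sdc1 (0.872). For Hes1 the list was Gstt3 (0.932), Slc4a4 (0.907) and Mpzl2 (0.904), and for Hes6 Mpzl1 (0.936), Vash2 (0.922) and Mex3a (0.914). Closest to Hey1, which reached at most 3.77 CPM in any sum, were Cd40 (0.887), Diras2 (0.885) and Snx32 (0.862). Jag1, with Lmna (0.751), Cald1 (0.741) and Unc13d (0.735), had the lowest values.

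The 3 organoid groups were then compared over sums of all kept cells, in 1 edgeR fit of 16037 genes with TMM scaling (factors 0.940 to 1.064, which the CPM values do not include). The 3 contrasts share libraries, and since the labels name no donor animals or separate cultures, the p-values measure the spread between these libraries. In such a sum, fewer cells of a type and less RNA per cell cannot be told apart. Between Hyper- and ENR-organoids, Hes1, Hes6, Gfi1 and Hey1 rose and Dll1 fell, at an adjusted p under 0.05. Of the 10 members 5 passed this threshold, where 56.8% of all genes tested did, and 1, Hey1, was called with at least a 2-fold change as well, where 22.9% of all genes were (18.2% higher and 4.75% lower in Hyper-organoids). Between Hyper- and -VE-organoids 5 members passed, Hes1 and Hey1 higher and Dll1, Dll4 and Atoh1 lower, against 47.6% of all genes, and Hey1 was again called, against 18.6% (16.1% higher and 2.51% lower). Both shares of members lay near or below that of all genes. The median log2 difference of the members was 0.12 against ENR- and 0.01 against -VE-organoids, beside -0.01 and 0.01 over all genes.

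The target Hes1 was read at 138, 123 and 130 CPM in ENR-organoids, 113 and 104 CPM in -VE-organoids, and 176, 173 and 223 CPM in Hyper-organoids. The Hyper-organoids lay above every other library, and the -VE-organoids below every ENR-organoid. Hes1 rose by 0.42 (log2, SE 0.10, edgeR adjusted p 0.00894) over ENR-organoids and by 0.67 (SE 0.12, edgeR adjusted p 0.00248) over -VE-organoids, and passed the threshold in 17 of 17 alternative analyses of each contrast. Between -VE- and ENR-organoids it differed by -0.25 (SE 0.12, edgeR adjusted p 0.235).

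Hey1, a repressor of the same family, was counted on 18, 18 and 18 UMIs in ENR-organoids, against 21 and 22 in -VE-organoids and 108, 40 and 38 in the Hyper-organoids, or 0.185, 0.146 and 0.202 CPM, 0.172 and 0.129 CPM, and 0.780, 0.281 and 0.421 CPM. All Hyper-organoids lay above all other libraries, and replicate 1, which also had the highest sum of stromal and endothelial markers (90.8 CPM), was the highest. The part of those markers in the result was not tested. Hey1 rose by 1.35 (log2, SE 0.41, edgeR adjusted p 0.0207) over ENR- and by 1.58 (SE 0.46, edgeR adjusted p 0.0230) over -VE-organoids. With Hyper-organoid replicate 1 left out, the first difference was 0.85 (edgeR adjusted p 0.0605), and without ENR-organoid replicate 1 or 2 it was 1.37 (0.0569) and 1.22 (0.0758). Without -VE-organoid replicate 1 or 2 the second was 1.80 (edgeR adjusted p 0.0644) and 1.39 (0.145).

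Hes6 was at 93.0, 95.0 and 89.0 CPM in ENR-organoids, 126 and 132 CPM in -VE-organoids, and 145, 119 and 127 CPM in Hyper-organoids. Every -VE- and Hyper-organoid library lay above every ENR-organoid library, and the Hyper- and -VE-organoids overlapped. Hes6 rose over ENR-organoids by 0.37 (log2, SE 0.07, edgeR adjusted p 0.00285) in Hyper- and by 0.49 (SE 0.08, edgeR adjusted p 0.0122) in -VE-organoids, the latter with an adjusted p of 0.100 without -VE-organoid replicate 2. Within classes Hes6 differed between Hyper- and ENR-organoids by -0.06 (SE 0.09, edgeR adjusted p 0.587) in the stem class and by 0.16 (SE 0.07, edgeR adjusted p 0.0899, passing in 3 of 16 alternatives) in the transit amplifying class. Over all cells it was the only member past the threshold between -VE- and ENR-organoids, where 7.88% of all genes passed. No member was called there by edgeR or DESeq2, 2 had an unadjusted p under 0.05, and 2.55% of all genes were called.

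**Figure D2:**
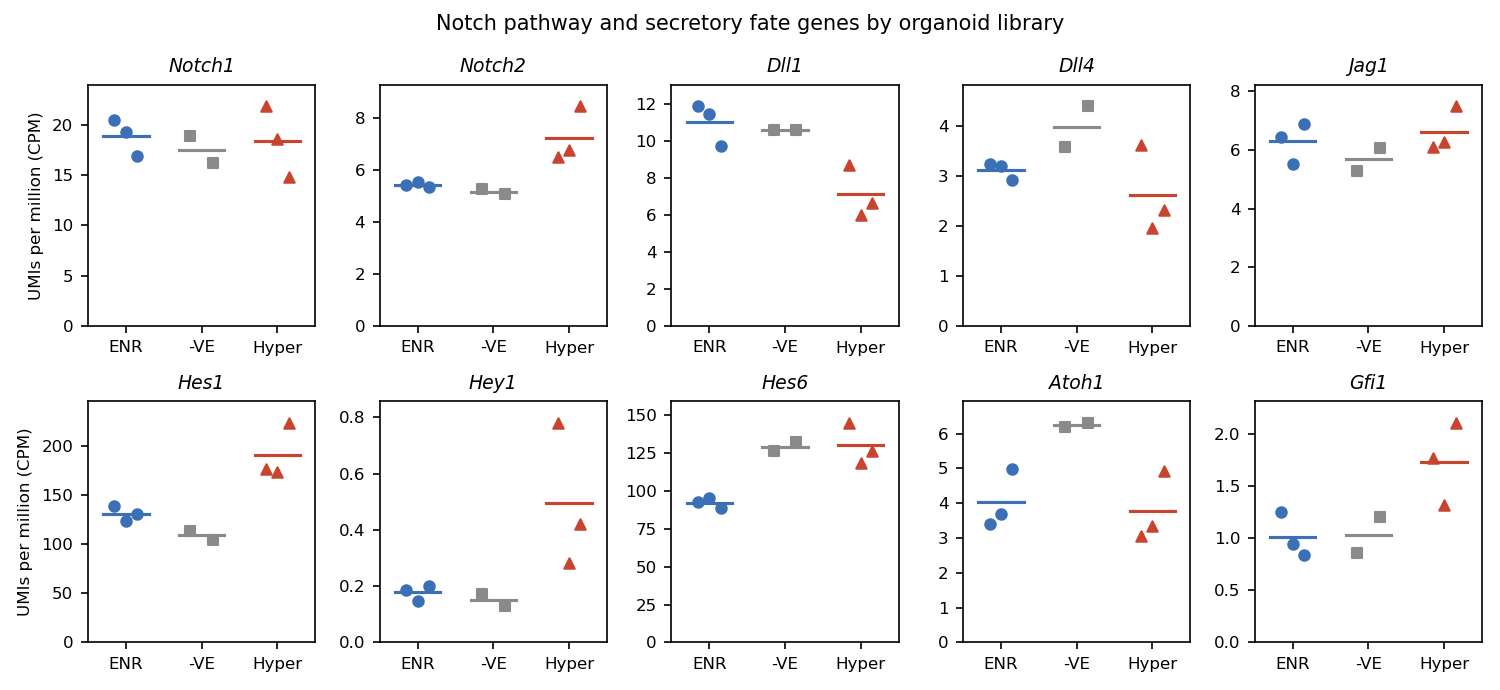
Levels in CPM over all kept cells (linear y axes from 0, 1 panel per gene) in each organoid library, with bars at the group means of 3 ENR-, 2 -VE- and 3 Hyper-organoid libraries. Hes1 and Hey1 are highest and Dll1 lowest in all 3 Hyper-organoid libraries, Hes6 is lowest in ENR-organoids, and Atoh1 is highest in both -VE-organoid libraries.

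The ligand Dll1 had 11.9, 11.5 and 9.76 CPM in ENR-organoids, 10.6 and 10.6 CPM in -VE-organoids, and 8.71, 6.01 and 6.65 CPM in Hyper-organoids. All 3 Hyper-organoids lay below all other libraries, while ENR- and -VE-organoids overlapped. Dll1 fell by 0.76 (log2, SE 0.13, edgeR adjusted p 0.0017) against ENR- and by 0.71 (SE 0.15, edgeR adjusted p 0.00525) against -VE-organoids, in 17 of 17 alternatives of each. Dll4, the other Delta ligand, had 3.24, 3.21 and 2.92 CPM, 3.58 and 4.40 CPM, and 3.62, 1.97 and 2.32 CPM in the same order. Hyper-organoid replicate 1 lay above all ENR-organoids and between the -VE-organoids, and the other two lay below all other libraries. Dll4 fell by 0.74 (log2, SE 0.24, edgeR adjusted p 0.0345) against -VE-organoids, with an adjusted p of 0.0538 when the culture series was a block. The adjusted p also missed the threshold without any one of the 3 ENR-organoid, both -VE-organoid or Hyper-organoid libraries 2 and 3 (edgeR adjusted p 0.0516 to 0.205). Against ENR-organoids the difference was -0.37 (SE 0.22, edgeR adjusted p 0.180), or, with Hyper-organoid replicate 1 left out, -0.66 (edgeR adjusted p 0.00681).

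Jag1 lay between 5.28 and 7.48 CPM in all 8 organoid libraries, with overlapping groups. Its differences were -0.05 (log2, SE 0.13) against ENR- and 0.08 (SE 0.15) against -VE-organoids, with edgeR adjusted p of 0.743 and 0.658. Notch1, with 14.8 to 21.8 CPM, was likewise not separated, at -0.16 (SE 0.13, edgeR adjusted p 0.332) and -0.06 (SE 0.15, edgeR adjusted p 0.744). Notch2 was at 5.42, 5.52 and 5.36 CPM in ENR-, 5.26 and 5.08 CPM in -VE-, and 6.49, 6.79 and 8.45 CPM in Hyper-organoids, and the Hyper-organoids did not overlap the others. Its difference of 0.29 (log2, SE 0.12, edgeR adjusted p 0.0639) against ENR-organoids missed the threshold and met it when culture series was blocked (0.28, adjusted p 0.0409), with DESeq2 (0.30, adjusted p 0.042) and without Hyper-organoid replicate 1 (0.37, adjusted p 0.0298). It also passed with a filter of 1 CPM in 2 libraries (0.33, adjusted p 0.0430), so that 4 of 17 alternatives passed. Against -VE-organoids it was 0.35 (SE 0.13, edgeR adjusted p 0.0553), and 4 of 17 alternatives passed, namely DESeq2 (adjusted p 0.0316), that filter (0.0366), leaving out the 5% of cells with the most UMIs (0.0444) and leaving out Hyper-organoid replicate 1 (0.0277).

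Atoh1 separated the -VE-organoids from the rest. It had 6.19 and 6.31 CPM there, 3.41, 3.70 and 4.99 CPM in ENR-organoids and 3.06, 3.35 and 4.92 CPM in Hyper-organoids. Both -VE-organoids lay above all other libraries, and ENR- and Hyper-organoids overlapped. Atoh1 fell by 0.87 (log2, SE 0.24, edgeR adjusted p 0.0189) from -VE- to Hyper-organoids, and by 1.09 (adjusted p 3.71e-04) when culture series was blocked. Without -VE-organoid replicate 1 or 2 or Hyper-organoid replicate 2 the difference was -0.86, -0.84 and -0.78 (edgeR adjusted p 0.0724, 0.0928 and 0.0565). From ENR- to -VE-organoids it was 0.64 (SE 0.24, edgeR adjusted p 0.157), which passed with the block (0.86, adjusted p 0.0076). The difference between Hyper- and ENR-organoids, -0.23 (SE 0.22, edgeR adjusted p 0.401), also passed only with the block (-0.24, adjusted p 0.0458). The goblet class, the main source of Atoh1, made up 4.89 to 5.65% of the cells in ENR-, 7.24 and 8.83% in -VE- and 5.62 to 6.61% in Hyper-organoids. The Paneth class made up 1.46 to 2.30%, 1.26 and 1.37%, and 0.0568 to 0.356%. The part of these shares in the result was not tested.

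Gfi1 did not follow Atoh1. It was at 1.25, 0.944 and 0.842 CPM in ENR-, 0.854 and 1.20 CPM in -VE-, and 1.77, 1.32 and 2.10 CPM in Hyper-organoids, with the Hyper-organoids above all others. It rose by 0.65 (log2, SE 0.24, edgeR adjusted p 0.0490) over ENR-organoids, at the edge of the threshold, with an adjusted p of 0.0708 under the block. The adjusted p was 0.0501 to 0.142 without Hyper-organoid replicate 1 or 3, ENR-organoid replicate 2 or 3 or -VE-organoid replicate 2. After each cell was thinned to 10000 UMIs the difference was 0.37 (adjusted p 0.405), and 8 of 17 alternatives passed. Against -VE-organoids the difference was 0.61 (SE 0.27, edgeR adjusted p 0.0968).

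Since the classes differ between media, with stem class shares of 9.75 to 14.7% in ENR-, 24.3 and 28.2% in -VE- and 40.04 to 44.1% in Hyper-organoids, the same fit was made within each class that had at least 20 cells in all 8 libraries. The members with enough counts were 8 in the stem class, 9 in the transit amplifying and goblet classes, and 6 in the enteroendocrine class. The deposited organoid annotation holds class names without cluster numbers. Per the study, the stem class joins several clusters of Hyper-organoids with a separate cluster of ENR-organoids, and the transit amplifying cells of these groups also lay apart. Hes1 rose over ENR- and over -VE-organoids within the stem, transit amplifying and goblet classes. Dll1 fell against ENR-organoids in the same 3 classes.

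**Figure D3:**
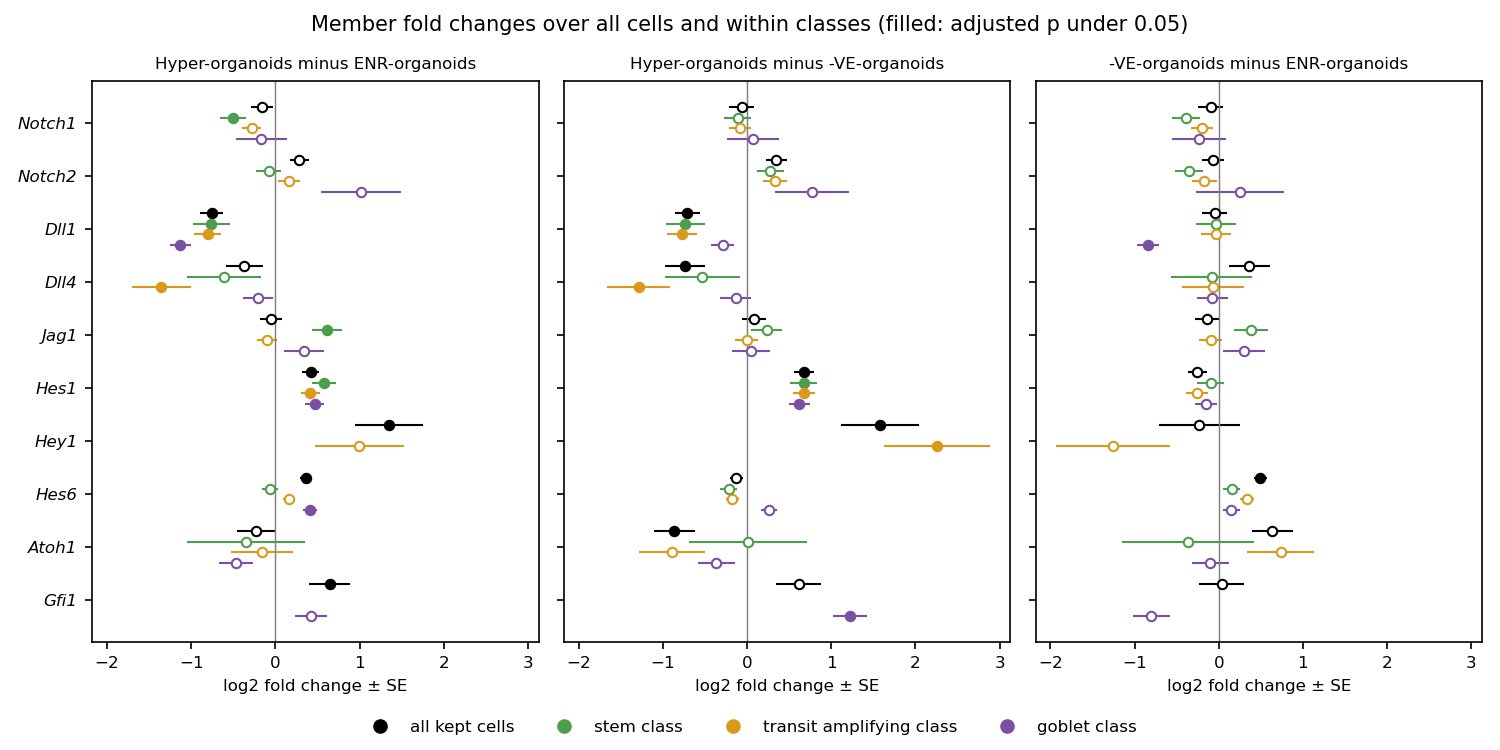
Log2 fold change of each member (x axis) with its standard error, over all kept cells and within the stem, transit amplifying and goblet classes, for the 3 contrasts; filled circles have an edgeR adjusted p under 0.05. Hes1 lies to the right and Dll1 to the left of 0 in both contrasts with Hyper-organoids in each class, Gfi1 in goblet cells lies at 1.22 against -VE-organoids, and the contrast of -VE- and ENR-organoids has 2 filled circles, Hes6 over all cells and Dll1 in goblet cells.

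In the goblet class Dll1 was at 102, 90.3 and 83.3 CPM in ENR-organoids, 56.1 and 50.8 CPM in -VE-organoids, and 52.1, 39.1 and 44.4 CPM in Hyper-organoids. The ENR-organoids stood apart from both other groups, which overlapped. Dll1 fell by 1.13 (log2, SE 0.12, edgeR adjusted p 4.55e-05) in Hyper- and by 0.84 (SE 0.13, edgeR adjusted p 0.00909) in -VE-organoids, and between Hyper- and -VE-organoids it differed by -0.29 (edgeR adjusted p 0.149). The first held in 16 of 16 alternatives, and the second was not past the threshold without -VE-organoid replicate 2 (edgeR adjusted p 0.177). Over all cells, by contrast, -VE- and ENR-organoids had overlapping Dll1 levels. Goblet cells were 8.03% of the cells in -VE- and 5.29% in ENR-organoids on average, and the part of this share in the result was not tested.

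Gfi1 in goblet cells was at 29.6, 20.2 and 19.2 CPM in ENR-organoids, 12.9 and 14.1 CPM in -VE-organoids, and 35.6, 26.2 and 37.2 CPM in Hyper-organoids. The -VE-organoids were lowest, and ENR- and Hyper-organoids overlapped. Gfi1 rose by 1.22 (log2, SE 0.20, edgeR adjusted p 0.00146) from -VE- to Hyper-organoids, in 16 of 16 alternatives. From ENR- to -VE-organoids it differed by -0.80 (SE 0.22, edgeR adjusted p 0.0774), which passed in 2 of 16 alternatives (DESeq2, adjusted p 0.0403, and edgeR with no filter on low counts, 0.000215). Atoh1 in the same cells was at 75.1, 67.4 and 104 CPM, 89.2 and 70.3 CPM, and 51.1, 63.2 and 77.7 CPM, and the groups overlapped. Its differences of -0.47 from ENR- and -0.36 from -VE-organoids had edgeR adjusted p of 0.104 and 0.264, and of 0.0156 and 0.0137 when culture series was blocked.

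Hes1 in goblet cells was at 49.8, 39.6 and 50.7 CPM, 43.8 and 43.0 CPM, and 68.8, 70.1 and 67.8 CPM in ENR-, -VE- and Hyper-organoids, and only the Hyper-organoids stood apart. It rose by 0.47 (log2, SE 0.12, edgeR adjusted p 0.0103) and 0.62 (SE 0.13, edgeR adjusted p 0.00473), and without -VE-organoid replicate 2 the second had an adjusted p of 0.0615. After thinning the first was 0.34 (adjusted p 0.173). Hes6 in these cells was at 147, 160 and 148 CPM, 178 and 172 CPM, and 211, 209 and 230 CPM, in 3 groups that did not overlap. It rose by 0.41 over ENR-organoids (SE 0.09, edgeR adjusted p 0.0042) and differed from -VE-organoids by 0.26. In all, 3 of 9 members passed the threshold against ENR-organoids, where 31.0% of all genes did, and 2 of 9 against -VE-organoids, where 20.4% did. Between -VE- and ENR-organoids 1 of 9 passed with edgeR and 2 with DESeq2, beside 2.23% of all genes with edgeR, and 0 were called by edgeR or DESeq2, beside 1.14%. Dll1 was called in the first contrast (13.3% of all genes, 2.64% lower) and Gfi1 in the second (9.87%, 8.72% higher).

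In the transit amplifying class, the dividing progenitors, Dll4 was at 1.53, 2.09 and 1.66 CPM in ENR-organoids, 1.48 and 1.86 CPM in -VE-organoids, and 1.19, 0.472 and 0.536 CPM in Hyper-organoids, which lay below all others. Dll4 fell by 1.36 (log2, SE 0.35, edgeR adjusted p 0.00987) against ENR-organoids, in 16 of 16 alternatives, and by 1.29 (SE 0.37, edgeR adjusted p 0.0204) against -VE-organoids. The second call was lost without -VE-organoid replicate 2 (-1.14, edgeR adjusted p 0.115) or with Hyper-organoid replicate 2 or 3 left out (-1.03 and -1.13, adjusted p 0.0504 and 0.0541). In goblet cells the Dll4 groups overlapped, at 28.0 to 30.7, 25.7 and 31.4, and 20.6 to 35.4 CPM, and neither contrast with Hyper-organoids passed the threshold there. A difference between the classes was not tested.

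Dll1 in the transit amplifying class had 7.00, 7.61 and 6.75 CPM, 6.68 and 7.20 CPM, and 5.57, 3.48 and 4.11 CPM, again with all Hyper-organoids lowest. It fell by 0.81 (log2, SE 0.16, edgeR adjusted p 0.00299) and 0.78 (SE 0.18, edgeR adjusted p 0.00689), the second with an adjusted p of 0.118 after each cell was thinned to 10000 UMIs. Hes1 there had 145, 125 and 145 CPM, 119 and 111 CPM, and 175, 189 and 232 CPM. It rose by 0.41 (SE 0.11, edgeR adjusted p 0.0140) and 0.67 (SE 0.13, edgeR adjusted p 0.0032), and without ENR-organoid replicate 2 the first had an adjusted p of 0.0534. Hey1 was called higher than in -VE-organoids, at 2.26 (SE 0.63, edgeR adjusted p 0.0178) on 11 and 4 UMIs against 56, 22 and 21, and without -VE-organoid replicate 2 it was at 1.47 (edgeR adjusted p 0.133). Against ENR-organoids Hey1 differed by 1.00 (edgeR adjusted p 0.141, and 0.0396 with the block). Atoh1 against -VE-organoids (-0.89, edgeR adjusted p 0.0886) passed with the block (-1.18, adjusted p 0.0134) and without Hyper-organoid replicate 3 (-1.33, adjusted p 0.0123). Notch1 against ENR-organoids (-0.28, edgeR adjusted p 0.0674) passed with the block (-0.29, adjusted p 0.0197) and with Hyper-organoid replicate 1 left out (-0.38, adjusted p 0.0135). The members past the threshold were 3 of 9 and 4 of 9, beside 55.8% and 47.3% of all genes, and those called were 1 and 2, beside 20.9% and 17.8%.

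In the stem class, whose cells sit in different clusters in these groups, Jag1 rose and Notch1 fell against ENR-organoids. Jag1 there was at 4.73, 3.08 and 4.98 CPM in ENR-, 5.13 and 5.84 CPM in -VE-, and 6.83, 6.78 and 7.28 CPM in Hyper-organoids, in 3 groups that did not overlap, and it rose by 0.61 (log2, SE 0.18, edgeR adjusted p 0.0195) over ENR-organoids, or 0.43 (adjusted p 0.0582) without ENR-organoid replicate 2. Notch1 was at 25.3, 25.1 and 19.3 CPM, 20.0 and 15.7 CPM, and 20.97, 17.7 and 14.6 CPM, with ENR- and Hyper-organoids overlapping. It fell by 0.50 (log2, SE 0.15, edgeR adjusted p 0.0194), with an adjusted p of 0.0518 to 0.0871 without ENR-organoid replicate 1 or 2 or Hyper-organoid replicate 2 or 3. Against ENR-organoids, -VE-organoids differed in Notch1 by -0.39 (edgeR adjusted p 0.265, and 0.0322 with the block).

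Hes1 in the stem class was at 139, 122 and 109 CPM, 122 and 110 CPM, and 198, 160 and 240 CPM, and the Hyper-organoids lay above all others. It rose by 0.58 (log2, SE 0.14, edgeR adjusted p 0.00794) and 0.67 (SE 0.16, edgeR adjusted p 0.00749), and the second had an adjusted p of 0.0816 without -VE-organoid replicate 2. Dll1 fell there by 0.76 (SE 0.22, edgeR adjusted p 0.0172) and 0.73 (SE 0.23, edgeR adjusted p 0.0270). The first no longer passed without ENR-organoid replicate 1 or 2 or Hyper-organoid replicate 2 (edgeR adjusted p 0.0594 to 0.0725), and the second without -VE-organoid replicate 1 (-0.53, adjusted p 0.181), Hyper-organoid replicate 2 or 3 (0.0865 and 0.0715) or after thinning (-0.36, adjusted p 0.370). Of 8 members 4 and 2 passed the threshold, beside 49.5% and 44.0% of all genes, and edgeR and DESeq2 called 0, beside 18.0% and 16.5% called by edgeR.

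No member passed the threshold with edgeR in the enteroendocrine class, the hormone cells, where edgeR and DESeq2 called 0 of 6 members and 7.40% of all genes were called against ENR- and 4.01% against -VE-organoids (14.0% and 5.10% at any fold). At an unadjusted p under 0.05 there were 2 and 1 members. The Delta ligands there had ENR-organoid levels of 47.4, 38.0 and 40.05 CPM (Dll1) and 48.1, 29.5 and 51.4 CPM (Dll4), and Hyper-organoid levels of 25.6, 32.9 and 20.1 CPM and 27.9, 27.4 and 21.7 CPM, which did not overlap. The Dll4 difference of -0.64 (log2, SE 0.23, edgeR adjusted p 0.0828) passed in 3 of 16 alternatives, with no filter on low counts (adjusted p 0.0244), after thinning (0.0335) and without ENR-organoid replicate 2 (0.0199). Against -VE-organoids the Dll4 difference of -0.63 (SE 0.24, edgeR adjusted p 0.170) passed after thinning (-1.05, adjusted p 0.0210), in 1 of 16. The Dll1 difference of -0.59 (SE 0.24, edgeR adjusted p 0.123) against ENR-organoids passed in 0 of 16. Between -VE- and ENR-organoids 0 members of the stem, transit amplifying and enteroendocrine classes passed the threshold with edgeR, beside 1.54%, 3.14% and 0.199% of all genes, and 0 were called in the transit amplifying class, beside 1.03% of all genes (0.694% higher and 0.337% lower). In each class 1 member had an unadjusted p under 0.05, and with DESeq2 0, 1 and 0 members passed. In enterocytes, which had 7, 58 and 21 cells in the Hyper-organoids and were not tested, Hes1 was at 316 and 363 CPM in the 2 Hyper-organoid libraries with at least 20 cells, and at 156 to 184 and 121 and 127 CPM in ENR- and -VE-organoids.

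The share of cells of the stem and transit amplifying classes with a UMI of Atoh1, Dll1 or Hes1 was taken after each cell had been thinned to 10000 UMIs and shallower cells had been left out (63 to 280 per organoid library over all classes). With 3 libraries against 3 an exact two-sided permutation test cannot give a p under 0.1, and with 3 against 2 none under 0.2. Atoh1 was found in 0.348, 1.07 and 0.948% of these cells in ENR-organoids, against 1.12 and 1.12% in -VE-organoids and 0.605, 0.583 and 0.678% in the Hyper-organoids. Among enterocytes, which should lack Atoh1, it was found in 0 of 186, 327 and 269 cells in ENR-organoids, which allows shares of up to 1.61, 0.917 and 1.12%, or of up to 0.384% for the 782 cells together. It was found in 1 of 145 and 2 of 224 enterocytes in -VE-organoids (0.690 and 0.893%), with exact 95% binomial intervals of 0.0175 to 3.78% and 0.108 to 3.19% that held the shares of 1.12%. The 82 enterocytes of the Hyper-organoids held 0, which allows up to 3.66%. Without thinning the mean shares in the stem and transit amplifying classes differed by 1.16 points between -VE- and ENR-organoids and by -1.29 points between Hyper- and -VE-organoids.

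Dll1 was found in 6.70, 7.08 and 7.06% of these cells in ENR-organoids, against 5.99 and 6.51% in -VE-organoids and 6.33, 3.72 and 4.69% in the Hyper-organoids. ENR- and Hyper-organoids did not overlap and differed by -2.03 points (exact permutation p 0.1, the smallest possible, adjusted over 9 tests 0.36). Hes1 was found in 60.96, 56.4 and 63.3%, 58.3 and 55.1%, and 61.1, 59.8 and 67.9%. Hyper- and -VE-organoids did not overlap (difference 6.23 points, exact permutation p 0.2, adjusted 0.36). In unthinned cells this difference was 0.881 points. None of the 9 comparisons could pass a threshold of 0.05, and the exact permutation p ranged from 0.1 to 0.5.

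Within single thinned cells of the stem and transit amplifying classes, the shares with Dll1, Dll4 and Hes6 were compared between cells with and without Atoh1. A Dll1 UMI was present in 30 of the 126 cells with an Atoh1 UMI (23.8%). As a mean of library shares this was 27.5% ± 20.2 (SD, n = 8 libraries), against 5.83% ± 1.07 in the cells without Atoh1, and the share was higher with Atoh1 in 8 of 8 libraries. The groups differed widely, as Dll1 was present beside Atoh1 in 50.0, 57.1 and 44.4% of cells for ENR-organoids, 15 and 25.7% for -VE-organoids and 13.3, 5.56 and 9.09% for Hyper-organoids. The Hyper-organoid shares rest on 2, 1 and 1 cells, and their exact 95% binomial intervals held the shares without Atoh1 (6.29, 3.71 and 4.66%), as did that of -VE-organoid replicate 1 (3.21 to 37.9%, against 5.89%). Dll4 was present in 17.2% ± 10.8 against 1.30% ± 0.54, and Hes6 in 78.1% ± 9.5 against 64.7% ± 4.8, each higher in 8 of 8 libraries, although the Dll4 shares rest on 1 to 4 cells per library. The intervals held the share without Atoh1 in 4 of 8 libraries for Dll4 and in 8 of 8 for Hes6, whose difference was thus within counting error in each library. Hes1 was found at 56.2% ± 24.5 against 60.4% ± 4.0 and was higher in 4 of 8 libraries. The intervals held the share without Atoh1 in 6 of 8, and lay below it in ENR-organoid replicates 2 and 3. By library the Hes1 share beside Atoh1 was 75.0, 21.4 and 22.2% in ENR-, 70.0 and 48.6% in -VE-, and 60, 61.1 and 90.9% in Hyper-organoids. Notch1 was found at 20.7% ± 14.6 against 17.7% ± 3.0 and was higher in 3 of 8. Gfi1, at 0.108 CPM in the transit amplifying and 0.0825 CPM in the stem class, was too low for its presence beside Atoh1 to be read at this depth. It had a UMI in 0 of the 126 cells with Atoh1, which limits the cells with a UMI to 2.38% and not those that express Gfi1, and in 0.0666% ± 0.0557 of the cells without. The cells with Atoh1 were few, down to 4 in a library, and the median depth before thinning was similar, 40656 to 58300.5 UMIs with Atoh1 and 40193 to 54483 without. Among the 895 cells with a Dll1 UMI, Dll4 (4.61% ± 2.54 against 1.20% ± 0.48) and Hes6 (69.5% ± 5.4 against 64.5% ± 4.7) were higher in 8 of 8 libraries and Hes1 (62.3% ± 8.8 against 60.3% ± 3.8) in 6 of 8, with intervals that held the share without Dll1 in 4, 8 and 7 of 8 libraries. The annotation that set these classes was made from the same counts, so these shares are descriptions.

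The other genes of the pathway were taken as 5 lists of 65 genes in all, of which 60 were tested over all cells. Between Hyper- and ENR-organoids 13 were called higher and 0 lower, with a median log2 difference of 0.15, beside 18.2% and 4.75% of all genes and a median of -0.01. At any fold 24 were higher and 12 lower. Against -VE-organoids 11 were called higher and 0 lower (22 and 11 at any fold), beside 16.1% and 2.51% of all genes. Between -VE- and ENR-organoids 1 was higher and 0 were lower, beside 1.35% and 1.2%.

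By role, called genes against ENR-organoids were 2 of 4 other receptors and ligands, 4 of 19 genes that process ligands and receptors, 3 of 14 of the nuclear complex and its regulators, 2 of 5 of the Hes and Hey family with Nrarp, and 2 of 18 secretory factors. The largest change was in Maml2, a Mastermind co-activator, with 0.0926, 0.0651 and 0.0449 CPM in ENR-, 0.115 and 0.135 CPM in -VE-, and 1.39, 1.99 and 1.76 CPM in Hyper-organoids. It rose by 4.52 (log2, SE 0.29, edgeR adjusted p 9.79e-06) over ENR- and by 3.62 (SE 0.31, edgeR adjusted p 1.00e-04) over -VE-organoids. Dtx3, a ubiquitin ligase of the Deltex family, had 0.792, 0.537 and 0.404 CPM, 1.26 and 1.16 CPM, and 12.2, 13.7 and 9.59 CPM. It rose by 4.23 and 3.15, and over all cells was the one gene of the lists called between -VE- and ENR-organoids (1.08, edgeR adjusted p 0.0367), which leaving out either -VE-organoid library or ENR-organoid replicate 2 or 3, or fitting the block, ended.

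Aph1c, a subunit of the gamma-secretase that cuts the receptor, rose by 3.50 and 2.79, though its reads may be shared with its near copy Aph1b. Neurl1a, which promotes ligand endocytosis, rose by 3.46 and 3.23 on 4 to 16 UMIs in each ENR- and -VE-organoid library and 86 to 138 in each Hyper-organoid library. Hes5 is a further Notch target, named here for its RBPJ-type matches and not by its rank. It had 0.185, 0.366 and 0.112 CPM in ENR-, 0.172 and 0.329 CPM in -VE-, and 0.700, 1.32 and 1.33 CPM in Hyper-organoids, above all others, and rose by 2.18 (SE 0.47, edgeR adjusted p 0.00439) and 2.00 (SE 0.53, edgeR adjusted p 0.0150). Nrarp, of the same list and with more counts, went the other way. It had 15.7 to 16.8 CPM in ENR-, 13.5 and 14.1 CPM in -VE-, and 11.4 to 12.7 CPM in Hyper-organoids, without overlap. In each contrast with Hyper-organoids 1 gene of this list was lower at an edgeR adjusted p under 0.05.

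**Figure D4:**
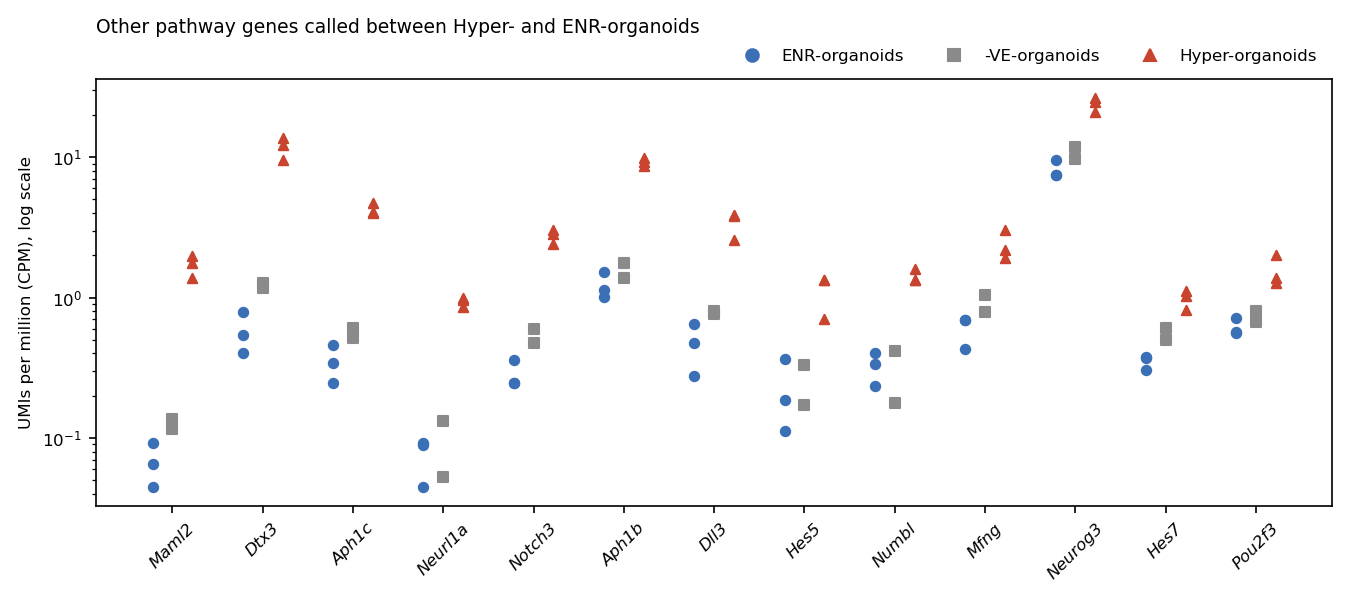
Levels in CPM over all kept cells (log y axis) of the 13 listed pathway genes called between Hyper- and ENR-organoids, ordered by fold change, with 1 point per library. For each gene the 3 Hyper-organoid libraries lie above all 5 other organoid libraries.

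Within classes the same lists gave 11 genes called higher and 1 lower against ENR-organoids in the stem class (of 55 tested), 16 and 0 in the transit amplifying class (of 57), 12 and 1 in the goblet class (of 53), and 4 and 1 in the enteroendocrine class (of 50). Against -VE-organoids the counts were 11, 11, 10 and 2 higher and 0 lower, where 14.7%, 15.5%, 8.72% and 3.52% of all genes tested were called higher. Of all genes tested in these classes, 2.8%, 3.78%, 2.64% and 1.44% were called lower against ENR-organoids and 0.489 to 2.32% against -VE-organoids, and the shares called higher were 15.2%, 17.2%, 10.7% and 5.96% against ENR-organoids. Between -VE- and ENR-organoids only Jag2 was called, higher in the goblet class of -VE-organoids (2.20, edgeR adjusted p 0.0052), where 0.529% of all genes were called higher.

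In the colon each condition was 1 library, so no test was made, and intervals are exact 95% Poisson intervals that cover counting error only. Atoh1 was at 24.1 CPM (21.96 to 26.3) in normal and 18.8 CPM (17.3 to 20.4) in DSS crypts, a log2 ratio of -0.34 with a pseudocount of 1 CPM. Gfi1 was at 5.53 CPM (4.54 to 6.66) and 3.58 CPM (2.96 to 4.29), and Jag1 at 11.7 CPM (10.2 to 13.3) and 7.35 CPM (6.44 to 8.34). All 3 were lower in the DSS library beyond counting error. With every barcode of the matrices in place of the kept cells, the intervals of Atoh1 (log2 ratio -0.03), Gfi1 (-0.19) and Jag1 (-0.23) overlapped. They also overlapped after cells were thinned to 5000 UMIs (-0.19, 0.14 and -0.75), where Gfi1 had the opposite sign.

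Hes6 was higher in the DSS library, at 57.6 against 77.5 CPM with intervals that did not overlap, and so was Hes1, at 102 CPM (97.5 to 106) against 113 CPM (110 to 117), although the Hes1 intervals overlapped after thinning (0.13). Notch2 was at 3.32 CPM (2.56 to 4.22) and 7.62 CPM (6.70 to 8.64), a log2 ratio of 1.00. In 6 of 25 deposited clusters over 50% of the cells held a UMI of the leukocyte gene Ptprc. They made up 19.3% of normal and 23.02% of the DSS cells, and without them Notch2 was at 2.25 CPM (1.63 to 3.03) and 3.58 CPM (2.94 to 4.31), whose intervals overlapped. The leukocyte list summed to 116 CPM in the normal and 1520 CPM in the DSS library. Notch1 (17.0 and 17.7 CPM), Dll1 (5.22 and 4.72 CPM), Dll4 (4.27 and 4.07 CPM) and Hey1 (12 and 9 UMIs) had overlapping intervals, except that Notch1 was higher in the DSS library with every barcode (0.39).

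**Figure D5:**
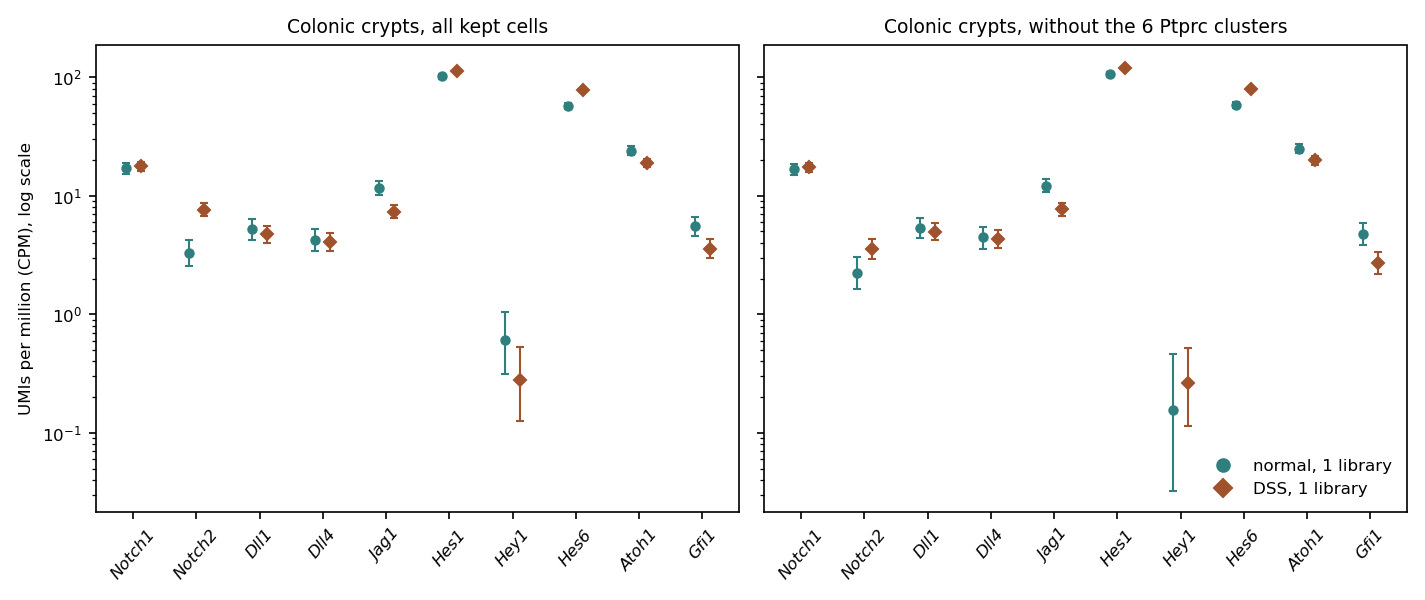
Levels in CPM (log y axis) of the 10 members in the normal and the DSS colonic library, over all kept cells (left) and without the 6 clusters rich in Ptprc (right), with exact 95% Poisson intervals for counting error. Atoh1, Gfi1 and Jag1 are lower and Hes1 and Hes6 higher in the DSS library on both sides, while the interval of Notch2 overlaps only on the right.

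By cluster the colonic pattern was again led by 1 group of cells. Cluster 5, whose leading genes include Mptx1, Retnlb, Spink4 and Muc2, held 77.2% of the Atoh1 UMIs in the normal and 86.2% in the DSS library, at 219 CPM (197 to 242) and 152 CPM (139 to 166). Dll1 there was at 31.9 CPM (24.0 to 41.6) and 18.0 CPM (13.8 to 23.02), Dll4 at 23.05 CPM (16.4 to 31.5) and 22.9 CPM (18.1 to 28.5), Gfi1 at 29.5 CPM (21.9 to 39.0) and 20.0 CPM (15.6 to 25.3), and Hes6 at 186 CPM (166 to 208) and 235 CPM (220 to 252). Within this cluster Atoh1 and Dll1 were thus lower and Hes6 higher in the DSS library beyond counting error, and Dll4 and Gfi1 were not separated.

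Notch1 and Hes1 were highest in cluster 2, which is led by Slc12a2 and Sox4. There Notch1 was at 52.4 CPM (43.8 to 62.3) and 49.0 CPM (41.9 to 57.0), and Hes1 at 198 CPM (180 to 216) and 231 CPM (215 to 247). The Notch2 UMIs of the DSS library lay in part in Ptprc-rich clusters, with 21.1% in cluster 15 (led by S100a9 and S100a8, 211 CPM), 18.6% in cluster 8 (led by Igkc and Igha, 97.4 CPM) and 6.07% in cluster 18 (led by Dcn and C3, 87.0 CPM). Gfi1 was likewise read in the Ptprc-rich cluster 0, led by Cd7 and Ccl5, at 21.4 CPM (11.1 to 37.4) and 35.0 CPM (22.2 to 52.5).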

How the data were processed

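The authors aligned 10x Genomics reads to mm10 and deposited UMI counts per gene and cell, with their annotation of classes (organoids) and clusters (colon). Cell Ranger is given as 3.0.0 in the submitters' processing notes and as 3.1.0 in the matrix headers, and Seurat as 3.1.4. The methods state a filter of 1500 genes and 25% mitochondrial counts, but the kept cells reach down to 501 genes. Treatment of doublets is not given in the sources used here; leaving out the 5% of cells with the most UMIs stood in for it. Per-sample columns left unmapped numbered 0.

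Deposited counts of the kept cells were summed per library and per class of at least 20 cells, and CPM was computed from the sums. Groups came from the labels. Each table was fitted with edgeR 4.0.16 (quasi-likelihood F test, TMM, filterByExpr; limma 3.58.1, R 4.3.3) over the 8 organoid libraries, with Benjamini-Hochberg adjustment over all genes tested. A gene was called at an adjusted p under 0.05 and at least a 2-fold change. The standard error is the size of the log2 difference over the square root of F. Shares used cells thinned to 10000 UMIs and exact permutation tests (scipy 1.17.1, Python 3.11.15, numpy 2.4.6, pandas 2.3.3). Intervals and limits cover counting error only. The edgeR fits were run on simulated sums with known fold changes and the same dispersion for every gene, and the other steps were not tested on simulated data.

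Replicates 1, 2 and 3 are the culture series, a grouping read from the sample codes. Deviations from the group means correlated between same-series ENR- and Hyper-organoids at 0.19, 0.17 and 0.44 over 16037 genes. Across series the values were 0.13 and 0.06 between replicates 1 and 2, and -0.29 to -0.18 with replicate 3. Deviations from a shared group mean are tied to each other, so these values are not independent. Replicate 3 stood apart, and a pairing within replicates 1 and 2 was not shown. The main fits did not model the series, and series C has no -VE-organoids. For the 2 series with -VE-organoids the same-series values were 0.16 and 0.06 with ENR- and 0.14 and 0.12 with Hyper-organoids. As 2 libraries deviate from their mean by opposite amounts, each of these had its exact negative across series. A fit with the series as a block was an alternative, beside DESeq2 1.42.0, DESeq2 size factors, other filters, thinning, every barcode and leaving out each library. The members and gene lists were chosen with earlier results of these data known. Of the pathway lists, at most 4 called genes in each direction and contrast were named by fold change, and for each member the 3 genes of highest Pearson r. Gene positions are from the GENCODE annotation of GRCm38.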

Additional observations from a re-analysis of the deposited data

Results flagged for a closer look

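The Atoh1 differences between Hyper- and ENR-organoids had opposite signs in the enteroendocrine and goblet classes in each culture series. In goblet cells the difference did not pass the threshold (edgeR adjusted p 0.104) but passed when culture series was blocked (edgeR adjusted p 0.0156), and Atoh1 was not among the genes tested in enteroendocrine cells. Within each culture series the difference of log2(CPM + 1), Hyper- minus ENR-organoids, was 0.63, 1.95 and 0.36 in the enteroendocrine class (series 2, 6 and C, mean 0.98) and -0.54, -0.09 and -0.42 in the goblet class (mean -0.35). The means differed by 1.33. The difference between the classes was not tested, and the enteroendocrine values rest on 48 UMIs over 8 libraries, against 3536 UMIs in the goblet class. The search covered every member and every pair of the stem, transit amplifying, goblet and enteroendocrine classes. No other pair had opposite signs in every series, and how many such pairs would arise by chance was not tested. No organoid group has 4 libraries, so single libraries could not be examined as outliers.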

How the results depend on the processing

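Small differences changed sign under some settings. With the replicate block (culture series) Notch1 and Jag1 differed between Hyper- and -VE-organoids by 0.023 and -0.014 and Notch2 between -VE- and ENR-organoids by 0.0026. After thinning, Gfi1 differed between -VE- and ENR-organoids by -0.23 and between the colonic libraries by 0.14. Leaving out 1 library at a time gave -0.15 to 0.052 for Jag1 and, against -VE-organoids, -0.20 to 0.069 for Notch1 and -0.013 to 0.20 for Jag1 in Hyper-organoids, and -0.22 to 0.0033 for Notch1 and -0.24 to 0.25 for Gfi1 between -VE- and ENR-organoids.

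The count of members called, 1 in both contrasts with Hyper-organoids over all cells, was 0 and 0 with at least 1 CPM in 2 libraries, where Hey1 is not tested, and 0 and 0 after thinning (Hey1 1.13, adjusted p 0.149, and 1.46, adjusted p 0.116), and against -VE-organoids 2 with the replicate block. Over single libraries left out against ENR-organoids it ranged from 0 to 1 (0 without ENR-organoid replicate 1 or 2 or Hyper-organoid replicate 1) and for -VE-organoids from 0 to 2 (0 without either -VE-organoid library, 2 without Hyper-organoid replicate 1 or 3). Within the stem class it ranged from 0 to 2 and 0 to 1, rising without Hyper-organoid replicate 1, and within the transit amplifying class from 1 to 2 and 0 to 2. The 2 members called there against -VE-organoids were 1 under the 1 CPM filter and 1 after thinning, and in the enteroendocrine class thinning gave 1 in place of 0 (Dll4, -1.05, adjusted p 0.021). Over all cells, the 1 pathway gene called between -VE- and ENR-organoids became 0 after thinning, 0 with the block and 3 with every barcode. Apart from the calls given beside the results, the block changed no call of a member at the adjusted p.

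Shares of stem and transit amplifying cells moved with depth. Unthinned and at 20000 UMIs, Dll1 differed by -7.04 and -3.63 points (at 10000 UMIs -2.03) between Hyper- and ENR-organoids, by -7.38 and -4.12 (-1.34) between Hyper- and -VE-organoids, and by 0.344 and 0.493 (-0.693) between -VE- and ENR-organoids. Atoh1 differed by -1.29 and -0.331 (-0.499) between Hyper- and -VE-organoids and, unthinned, by 1.16 (0.334) between -VE- and ENR-organoids. Hes1 differed unthinned by 0.881 (6.23) and 0.484 (-3.49) in these contrasts.

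Counts of all genes called fell from 3675 to 2195 between Hyper- and ENR-organoids, and 2985 to 1778 between Hyper- and -VE-organoids, at 1 CPM, where fewer genes are tested. Between -VE- and ENR-organoids 409 became 669 with every barcode and 96 without -VE-organoid replicate 2. Within classes that contrast ranged from 8 to 183 in the stem (70), 39 to 268 in the transit amplifying (150), 11 to 351 in the goblet (133) and 3 to 268 in the enteroendocrine class (21). After thinning the goblet class gave 832 in place of 1563 and 557 in place of 1156, and with no filter the enteroendocrine class gave 1256 in place of 818 and 893 in place of 443. The cause of these changes was otherwise not tested. Hey1, and Atoh1 outside the goblet and Paneth classes, are limited by depth.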
